A study of Drosophila melanogaster with 164 samples.

Results

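DGRP486 is an inbred fly stock, 1 of 41 studied from the DGRP (Drosophila Genetic Reference Panel), whose stocks were made by inbreeding the descendants of wild-caught Drosophila melanogaster until each stock carries nearly a single genotype. Its members here are 4 RNA-seq libraries of 164 in all: 2 of whole feeding third-instar larvae and 2 of whole adults, numbered as biological replicates 1 and 2 by the labels. They were taken by the line's number and the stage in their titles, and each pair was set against the libraries of the other 40 lines at the same stage. That left 78 larval and 80 adult libraries of other lines, because larval libraries of DGRP787 replicate 1 and DGRP491 replicate 2 hold identical counts and were both left out.

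No line carried a transgene or received a treatment, so genotype is the only labelled biological difference between the groups. The labels also give each library a sequencing pool number and an extraction number. The part of these in the differences was not tested, apart from a fit with pool as a factor. All lines were chosen free of inversions and across the panel's range of starvation resistance, and all were raised on the same cornmeal-molasses medium at 25 °C. Animals from a pair of vials were pooled for each library, and how many went into each one is not given. Larvae were taken from the food when the first larva of their vial had begun to wander, so lines were matched by development and not by age. Larvae were not sexed, the labels give no sex for the adults, and adults were frozen after maturing for 4 days. The table holds 7414 genes, none with fewer than 11 reads in any library, so genes silent in DGRP486 or in any other line cannot be seen in it.

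An inbred line differs from another at many loci at once, and a variant near a gene can change that gene's transcription directly, while others act through transcription factors, hormones or diet. In flies the gut and fat body respond strongly to such differences: cytochrome P450s, glutathione S-transferases and UDP-glycosyltransferases break down or conjugate toxins and hormones, and Jonah proteases, amylases and maltases digest food. Larva and adult are built from largely separate sets of cells on either side of metamorphosis, so a line's difference at 1 stage need not appear at the other, which is the question the study's title raises.

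Depth was 14479238 and 7763417 reads in the DGRP486 larval libraries and 10162264 and 16017527 in its adult libraries, against 2407244 to 26429404 in other larvae and 2748964 to 20421026 in other adults. Levels below are CPM, read counts relative to library size after scaling by the trimmed mean of M values (TMM). Scaling was done within each stage, so larval and adult CPM are not on a common scale. In every one of the 4 libraries, deviations from the stage mean correlated best with the line mean of DGRP486 at the other stage among all 41 lines (Pearson r across genes 0.191 and 0.31 in larvae, 0.249 and 0.349 in adults). The X-coating RNA roX1, which is made in males, was at 325 and 188 CPM in DGRP486 larvae, against 43.9 to 678 CPM in other larvae. It was at 842 and 904 CPM in DGRP486 adults, against 266 to 1628 CPM in other adults, so DGRP486 stayed inside the range of the other lines at both stages in this marker of sex composition. The 4 female and ovary markers measured, the 7 testis markers and the 7 dosage compensation genes had no member called at either stage. Over all genes, 3.68% were called in larvae and 5.34% in adults, so lists this short would hold few calls. In larvae 0 of the 7 testis markers had a positive log2 fold change, with a median of -0.25. Positive values were found there for 3 of the 4 female and ovary markers and 5 of the 7 dosage compensation genes. By correlation with line means of the other stage, 19 of 80 larval and 19 of 82 adult libraries matched another line better than their own. Among them were larval replicate 2 of DGRP882, DGRP897 and DGRP911 and all 4 libraries of DGRP235. All were kept as labelled. Leaving out the 3 named libraries of DGRP882, DGRP897 and DGRP911, which were chosen from earlier results of these data, 314 genes were called in larvae and 73 at both stages with the same sign, against 273 and 69 with them; the other mismatched libraries were not left out in any fit.

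The 2 DGRP486 larval libraries were far apart. The SD of their log2 difference over genes was 0.608, the second highest of 39 lines (range 0.242 to 0.624, median 0.404), whereas for DGRP486 adults it was 0.225, the fifth lowest of 41 lines (median 0.292). Larval replicate 1 was lower than replicate 2 in genes of energy production, with a median log2 difference of -0.85 over 64 oxidative phosphorylation genes, -0.84 over 15 citric acid cycle genes and -0.73 over 71 mitochondrial ribosomal protein genes. It was higher by a median of 0.63 over 14 ecdysone and juvenile hormone genes and of 0.93 over 7 testis genes, and the median over all genes was -0.01. Each of the 4 libraries carries its own sequencing pool number in the labels. Larval results below are therefore given with the effect of leaving out either library wherever that ends a call, and the part of the replicate difference or the pool in any of them was not tested beyond the values given.

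**Figure D1:**
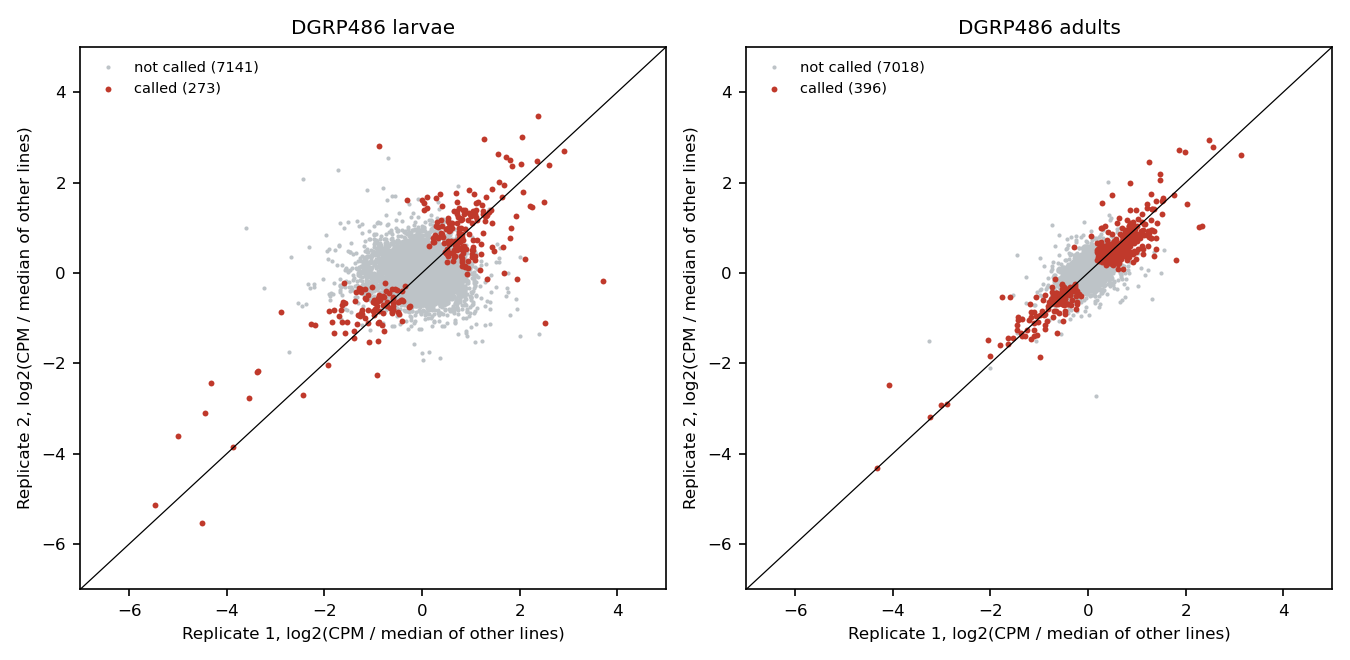
Each point is 1 gene; the axes give the log2 ratio of CPM in replicate 1 (horizontal) and replicate 2 (vertical) of DGRP486 to the median of the other lines, in larvae (left) and adults (right), with genes called against the other lines in red. The cloud is wider in larvae, where the SD of the log2 replicate difference is 0.608 against 0.225 in adults; the genes at the lower left of each panel are low in both libraries.

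In larvae, 273 of 7414 genes (3.68%) were called different in DGRP486 by edgeR's quasi-likelihood test, at a Benjamini-Hochberg adjusted p under 0.05 over all genes, with 171 (2.31%) higher and 102 (1.38%) lower. In adults, 396 genes (5.34%) were called, 256 (3.45%) higher and 140 (1.89%) lower. The test sets DGRP486 against the mean of the other 40 lines on the log scale and measures error by the spread between replicates of a line. Lines with very low levels weigh more in such a mean than in a mean of CPM. The other lines differed among themselves by the same kind of test in 3408 genes (46%) in larvae and in 5123 genes (69.1%) in adults. Among the genes called for DGRP486 these shares were 80.2% in larvae and 94.9% in adults, so most called genes also vary elsewhere in the panel. When each line was made the unit of error, limma called 17 genes in larvae and 15 in adults.

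Against the same measure taken for every other line, DGRP486 was not extreme. Its 273 larval calls were fewer than those of 12 lines and more than those of 28 (other lines 59 to 1153, median 189.5), and its 396 adult calls were fewer than those of 22 lines and more than those of 18 (225 to 2448, median 444.5). The lowest larval count was that of DGRP787, from which larval replicate 1 was left out. The highest larval and lowest adult counts were those of DGRP235, whose libraries all matched other lines better than their own. Without larval replicate 1 the larval count was 127, and without replicate 2 it was 284, of which 129 were among the 273. Without adult replicate 1 the adult count was 129, and without replicate 2 it was 140. With sequencing pool as a factor it was 112 in larvae and 386 in adults, and of the 52 larval calls of genes chosen for naming 25 were lost. Among genes described below, these were the larval calls of Jon25Biii, CG11854, CG10184, CG4115, CG6337, Ugt36D1, CG5246, CG7720, Jon65Aiii, Obp56d and Vha100-4. They also covered mRpS10, Mal-A4, PGRP-SA, Tl, Hsp67Ba, Hex-A, bmm, Lsd-2, Tsf1 and Cpr51A. Outside that naming, Crtc, Cyp12a4, Ugt304A1, Mal-A6 and LManI lost the larval call too, and thetaTry and Zasp66 the adult call.

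At both stages with the same sign, 69 genes (0.931%) were called, 45 (0.607%) higher and 24 (0.324%) lower. Just 2 genes (0.027%) were called with opposite signs. A test of the adult minus larval difference itself called 112 genes (1.51%), 65 (0.877%) standing higher and 47 (0.634%) lower in adults than in larvae relative to the other lines. Combining these, 49 genes (0.661%) differed in larvae only, meaning called in larvae, not called in adults and called in the test of the difference, and 36 genes (0.486%) differed in adults only. A further 153 genes called in larvae alone and 289 called in adults alone did not pass the test of the difference, and for these a stage difference cannot be stated. The joint fit behind that test shares 1 error estimate per gene between the stages, and it called 580 genes in larvae against 273. It can therefore understate larval error in every stage difference given here. Across all 7414 genes the larval and adult log2 fold changes had a Pearson r of 0.326, and 54.7% had the same sign; genes are not independent replicates. Of the larval calls, 77.7% had the same sign in adults, and of the adult calls, 72.5% had the same sign in larvae.

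**Figure D2:**
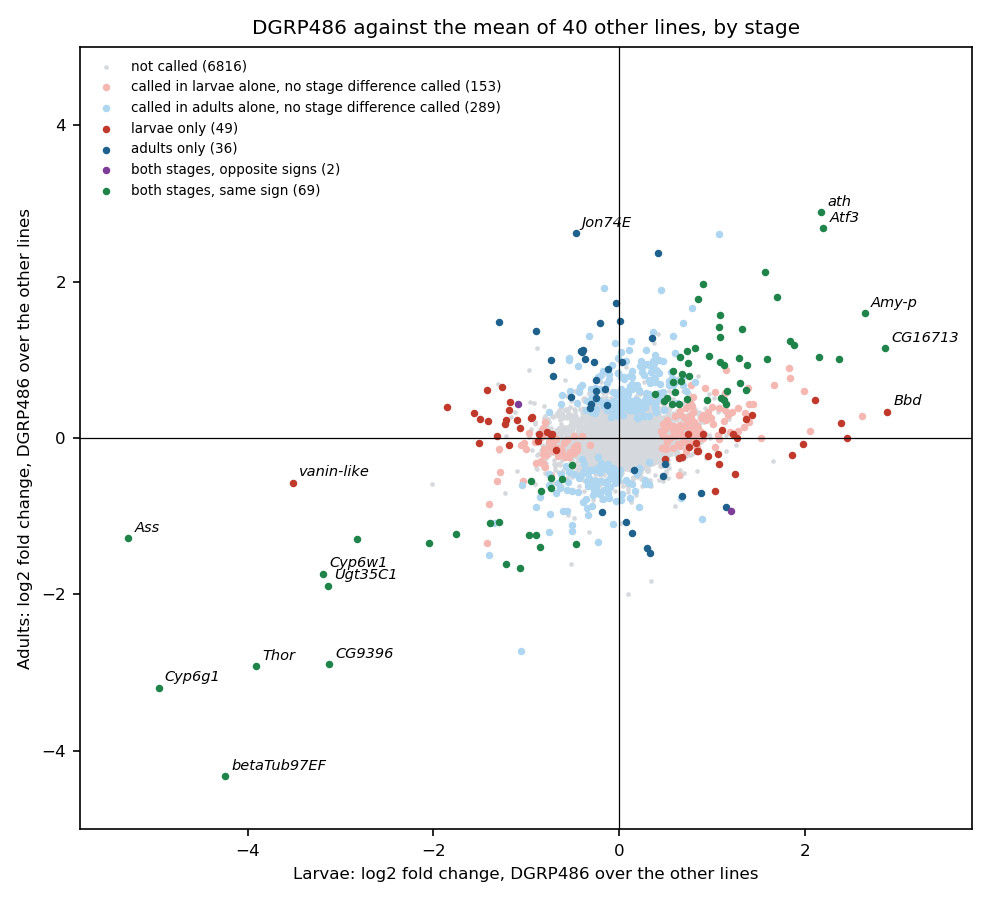
Log2 fold change of DGRP486 over the log-scale mean of the other 40 lines in larvae (horizontal) and adults (vertical), 1 point per gene, coloured by the calls at the 2 stages. The 69 genes called at both stages with the same sign lie at the lower left and upper right, with Cyp6g1, betaTub97EF and Thor farthest out at the lower left, while Ass and vanin-like lie far to the left, at -1.28 and -0.57 in adults.

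The clearest differences were genes in which both DGRP486 libraries lay beyond every library of the other lines. This held for 13 genes below (0.175%) and 22 above (0.297%) in larvae, and for 16 below (0.216%) and 23 above (0.31%) in adults. For 10 genes it held at both stages and in the same direction: betaTub97EF, Cyp6g1, Thor, CG9396 and Crtc were below, and Atf3, ath, CG18343, Tim23 and CG3842 above. Leaving out any single DGRP486 library kept the calls of these genes at both stages in all but Crtc, and so did a fit with sequencing pool as a factor. With each line as the unit of error, 8 of the 10 were called at both stages, all but CG18343 and CG3842, and no other gene was. The 10 were picked by these same values, so the leave-out, pool and line-unit results are not separate support for them. Crtc, CG18343, Tim23 and CG3842 are described because their libraries left the range, after their values were seen.

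betaTub97EF encodes a beta-tubulin, a subunit of microtubules, on chromosome 3R (27967008 to 27988384, minus strand, assembly BDGP6, as for all positions here). Its level was 4.31 and 11.3 CPM in DGRP486 larvae, against 67.3 to 310 CPM (median 138) in other larvae. In adults it was 5.25 and 5.26 CPM in DGRP486, against 72.2 to 147 CPM (median 105) in other adults. The nearest other library was thus several times higher at either stage. The log2 fold change was -4.24 ± 0.47 (SE) in larvae and -4.32 ± 0.20 in adults, or 18.9-fold and 20.0-fold lower, with edgeR adjusted p of 6.86e-09 and 2.93e-22. The adult minus larval difference was -0.06 ± 0.40. Among the other larvae this gene did not pass the test for differences between lines (edgeR adjusted p = 0.338).

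Cyp6g1 (2R, 12185667 to 12188431, plus strand) encodes the P450 known for insecticide resistance, including to DDT, when its transcription is raised. DGRP486 larvae had 217 and 108 CPM, against 1098 to 12864 CPM (median 4958) in other larvae, and DGRP486 adults had 466 and 480 CPM, against 965 to 8698 CPM (median 4400) in other adults. All 4 DGRP486 libraries were below the lowest of the other libraries of their stage, and the next lowest line was DGRP356 at both stages, with mean levels of 1163 CPM in larvae and 1029 CPM in adults. Its log2 fold change was -4.96 ± 0.38 in larvae and -3.19 ± 0.20 in adults. The deficit was smaller in adults by 1.78 ± 0.30 on the log2 scale (edgeR adjusted p = 9.14e-05). Its neighbour Cyp6g2 overlaps it by 93 bases on the opposite strand and was lower as well, by -1.39 in larvae and -1.08 in adults, the larval call being lost without larval replicate 2 (0.0625). Whether the counting used strand is not given in the sources used here, so reads from the overlap could not be assigned to either gene with certainty. The same limit holds for other genes described below that overlap a gene on the opposite strand, among them Vha100-4 (cona), Mal-B2 (Pde1c), CG11854 (bam), CG18343 (SkpB), Cpr56F (CkIIbeta2) and nec (pk).

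Thor (2L, 3478434 to 3479612) encodes the fly 4E-BP, which binds the cap-binding factor eIF4E and holds back translation until the TOR kinase phosphorylates it. Its level was 24.0 and 24.4 CPM in DGRP486 larvae, against 171 to 1430 CPM (median 351) in other larvae, and 51.1 and 54.0 CPM in DGRP486 adults, against 131 to 709 CPM (median 412) in other adults. Neither stage overlapped with the other lines. Thor had a log2 fold change of -3.91 ± 0.36 in larvae and -2.92 ± 0.38 in adults. The stage difference of 1.00 ± 0.40 did not pass the test. Of the 21 measured genes of insulin and TOR signalling, Thor was the only member called at either stage. Over all genes, 3.68% were called in larvae and 5.34% in adults, so a list this short would hold few calls.

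CG9396 (3R, 9570414 to 9571623) stood at 1.90 and 7.07 CPM in DGRP486 larvae, against 7.32 to 116 CPM (median 38.4) in other larvae. In adults it was at 8.57 and 8.53 CPM in DGRP486, against 14.5 to 127 CPM (median 63.8) in other adults. The upper larval value came close to the lowest of the other libraries, and the adult values did not. For CG9396 the log2 fold change was -3.13 ± 0.42 in larvae and -2.89 ± 0.31 in adults. Crtc, the coactivator that works with the transcription factor CREB, was at 9.58 and 8.31 CPM in DGRP486 larvae, against 10.9 to 28.7 CPM in other larvae, and at 24.8 and 24.6 CPM in DGRP486 adults, against 37.8 to 108 CPM in other adults. Its log2 fold change was -0.98 ± 0.23 in larvae and -1.24 ± 0.18 in adults. The larval call of Crtc was lost without larval replicate 1 (edgeR adjusted p = 0.0986), without larval replicate 2 (0.0921) and with pool as a factor (0.193).

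Of the genes above the range, Atf3 encodes a leucine-zipper transcription factor and lies on X (1242740 to 1275284, minus strand). It was at 141 and 184 CPM in DGRP486 larvae, against 15.0 to 82.8 CPM (median 34.4) in other larvae, and at 513 and 601 CPM in DGRP486 adults, against 43.8 to 145 CPM (median 87.4) in other adults. The groups did not overlap at either stage, and the adult gap was the wider. Atf3 was higher by a log2 fold change of 2.20 ± 0.21 in larvae and 2.69 ± 0.13 in adults. For Atf3 the other lines did not pass the test for differences among themselves in larvae (edgeR adjusted p = 0.538) or in adults (0.132).

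ath (2L, 10211143 to 10213721, plus strand) had the smallest adjusted p of all genes at both stages. DGRP486 larvae had 81.9 and 146 CPM, against 17.7 to 34.6 CPM (median 24.7) in other larvae, and DGRP486 adults had 199 and 137 CPM, against 16.2 to 33.6 CPM (median 22.5) in other adults. The other lines spanned a narrow range at each stage, and DGRP486 lay far above it. For ath the log2 fold change was 2.18 ± 0.11 in larvae and 2.89 ± 0.08 in adults (edgeR adjusted p = 1.73e-19 and 3.22e-31). The adult excess was larger by 0.73 ± 0.18 (edgeR adjusted p = 0.0199), a call lost without larval replicate 1 (0.503) and without adult replicate 1 (0.627).

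The other genes above the range moved less. Tim23 encodes a subunit of the channel that imports proteins across the inner mitochondrial membrane. It was at 197 and 266 CPM in DGRP486 larvae, against 74.1 to 157 CPM in other larvae, and at 328 and 299 CPM in DGRP486 adults, against 94.5 to 208 CPM in other adults. CG18343 was at 130 and 125 CPM in DGRP486 larvae, against 26.8 to 97.3 CPM in other larvae, and at 89.7 and 91.9 CPM in DGRP486 adults, against 22.6 to 75.8 CPM in other adults. CG3842 was at 51.3 and 53.9 CPM in DGRP486 larvae, against 6.17 to 48.8 CPM in other larvae, and at 63.7 and 59.5 CPM in DGRP486 adults, against 18.6 to 57.5 CPM in other adults. The log2 fold changes in larvae and adults were 1.09 and 0.97 for Tim23, 1.29 and 1.02 for CG18343, and 1.30 and 0.71 for CG3842. For Tim23, as for Atf3 and Crtc, the other lines did not pass the test for differences among themselves at either stage.

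**Figure D3:**
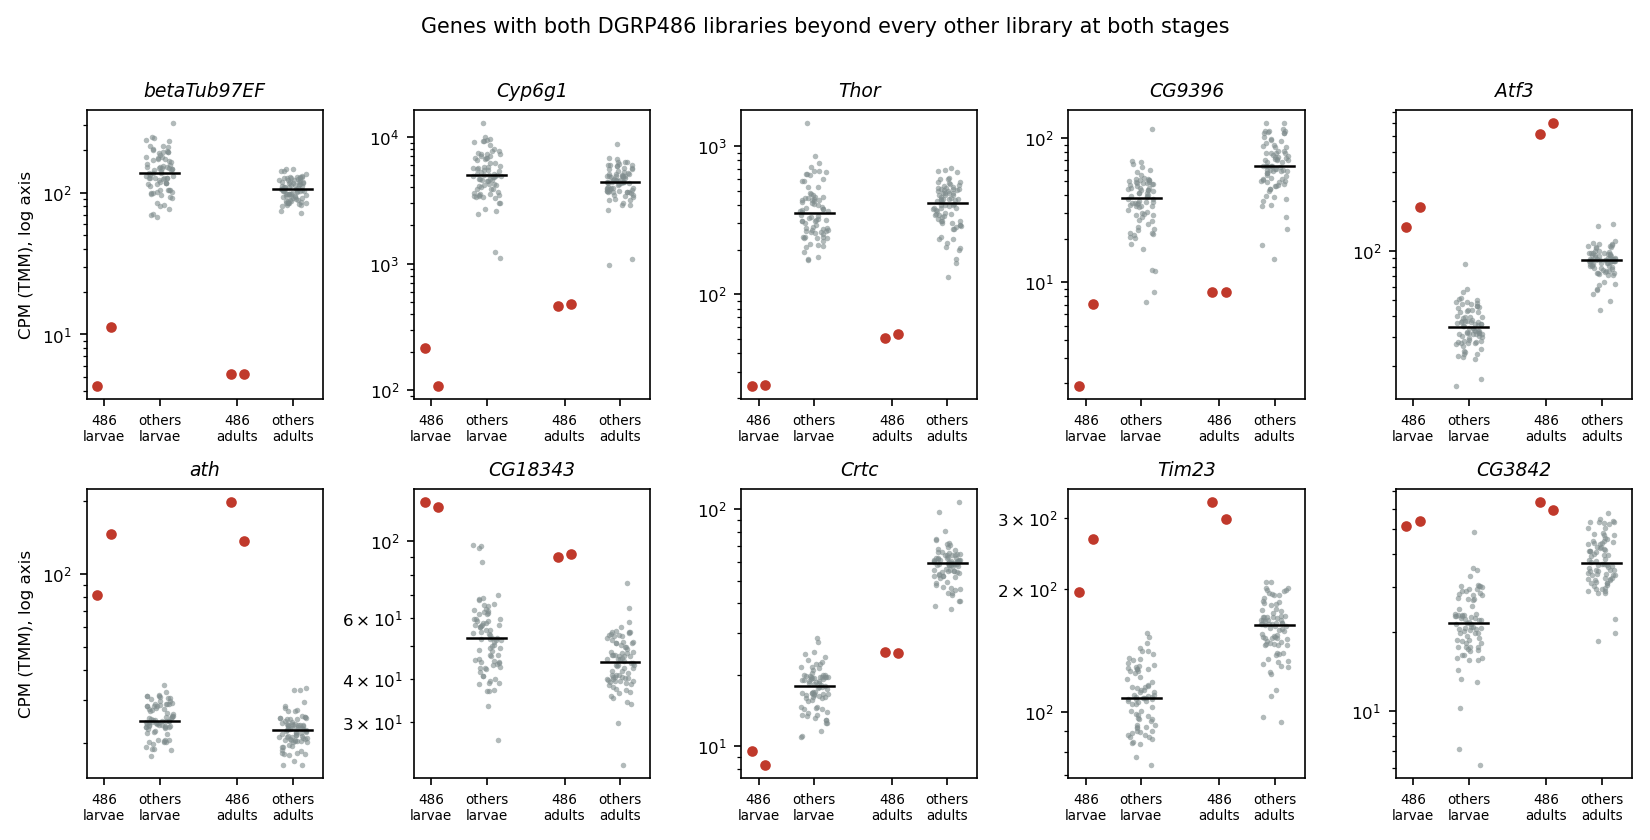
CPM on a log axis for the 10 genes in which both DGRP486 libraries (red, replicate 1 left of replicate 2) lie beyond every library of the other lines (grey, 78 larval and 80 adult libraries, bar at the median) at both stages. DGRP486 lies below the grey points in 5 panels and above them in 5; in betaTub97EF it is at 5.25 and 5.26 CPM in adults, where the lowest grey point is at 72.2 CPM.

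Of 19 genes in the table next to these 10 on the chromosome, 2 were called in larvae and 4 in adults, where 3.68% and 5.34% of all genes were called. These were Cyp6g2 beside Cyp6g1 and CG12567 next to Tim23, 137981 bases away, at both stages, and CG16790 beside CG9396 and CG5727 beside ath in adults. CG5727, 462 bases from ath, was higher by 0.68 in adults, and CG16790, 200 bases from CG9396, was lower by -0.80 in adults. On the other side of ath, Npc1a lies 91 bases away, and its log2 fold changes were -0.53 in larvae and -0.03 in adults without a call.

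By chromosome arm, the share of genes called in larvae was 4.84% on 2R, 3.63% on 3R, 3.55% on 2L, 3.52% on 3L and 2.69% on X. In adults it was 6.38% on 3L, 5.97% on 2R, 5.67% on 2L, 5.61% on 3R and 3.10% on X. The genes called at both stages with the same sign numbered 20 on 2R, 16 on 2L, 16 on 3R, 12 on 3L and 5 on X, and none lay on chromosome 4. The spread of these shares between arms was not tested.

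Argininosuccinate synthase, encoded by Ass (3R, 6642262 to 6644434, minus strand), joins citrulline and aspartate on the way to arginine. DGRP486 larvae had 1.46 and 1.86 CPM, against 2.65 to 139 CPM (median 65.1) in other larvae. DGRP486 adults had 23.0 and 21.2 CPM, against 16.3 to 95.6 CPM (median 56.3) in other adults. In larvae DGRP486 was the lowest of the 41 lines, just under DGRP796 with a mean of 3.68 CPM, and in adults it was the second lowest, above DGRP796 with 17.2 CPM. For Ass the log2 fold change was -5.29 ± 0.37 in larvae, 39.0-fold lower, and -1.28 ± 0.14 in adults, 2.43-fold lower. Its DGRP486 larval levels lie near the table's minimum of 11 reads, so the sizes of the larval fold and of the stage difference are uncertain. The difference between stages was 4.02 ± 0.33 (edgeR adjusted p = 8.84e-17), and it was the only stage difference called when each line was the unit of error. Its SE was below the larval SE of 0.37, since the joint fit shares 1 error estimate between the stages. Of the other 12 measured genes of arginine and urea-type metabolism, none was called at either stage. The share called over all genes was 3.68% in larvae and 5.34% in adults. Ass overlaps CG31286 on the opposite strand, so the limit given for Cyp6g1 holds here too.

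Among enzymes that handle toxins and hormones, more of the called genes were lower in DGRP486 than higher. Of 54 measured cytochrome P450 genes, 6 were lower and 2 higher in larvae, and 10 were lower and 6 higher in adults; over all genes the larval calls were 1.38% lower and 2.31% higher, and the adult calls 1.89% lower and 3.45% higher. Of all 54, called or not, 15 had a positive log2 fold change in larvae and 29 in adults. The median log2 fold change over the family was -0.18 in larvae and 0.03 in adults, against 0.02 and -0.01 over all genes. Lower at both stages were Cyp6g1, Cyp6g2, Cyp6w1 and Cyp6a23, and higher at both was Cyp12a4 (0.82 in larvae, 1.16 in adults). The larval call of Cyp12a4 was lost without larval replicate 1 (edgeR adjusted p = 0.0631) or 2 (0.212). The summed level of the family was 5705 and 7229 CPM in DGRP486 larvae, against 6540 to 27804 CPM (median 13964) in other larvae, and 39708 and 39914 CPM in DGRP486 adults, against 24332 to 61301 CPM (median 39581) in other adults. Cyp6g1 alone had a median of 4958 CPM in other larvae.

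Cyp6w1 had 8.24 and 18.7 CPM in DGRP486 larvae, against 2.25 to 3030 CPM (median 84.9) in other larvae, and 101 and 109 CPM in DGRP486 adults, against 3.25 to 3688 CPM (median 295) in other adults. Its range across the panel was among the widest described here, and other lines reached lower values than DGRP486 at both stages. Cyp6w1 had a log2 fold change of -3.18 ± 0.65 in larvae and -1.73 ± 0.26 in adults, and the larval call was lost without replicate 1 (edgeR adjusted p = 0.118). Cyp6a23 was at 88.7 and 149 CPM in DGRP486 larvae, against 83.8 to 6583 CPM (median 287) in other larvae, and at 56.0 and 47.2 CPM in DGRP486 adults, against 26.9 to 1129 CPM (median 92.2) in other adults. The groups overlapped, with log2 fold changes of -1.76 ± 0.39 and -1.23 ± 0.33. Its call was lost in larvae without replicate 1 (0.197) and in adults without replicate 1 (0.173) or 2 (0.378).

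Of 38 glutathione S-transferases and UDP-glycosyltransferases measured, which conjugate toxins, 4 were lower and 2 higher in larvae, where 1.38% of all genes were lower and 2.31% higher. In adults 3 were lower and 2 higher, where 1.89% of all genes were lower and 3.45% higher, with median log2 fold changes of -0.08 and 0.01. Ugt35C1, a UDP-glycosyltransferase, was at 15.5 and 26.8 CPM in DGRP486 larvae, against 9.80 to 1984 CPM (median 182) in other larvae, and at 44.3 and 49.7 CPM in DGRP486 adults, against 29.5 to 1185 CPM (median 179) in other adults. The omega-class transferase gene GstO3 was at 22.1 and 18.2 CPM in DGRP486 larvae, against 12.6 to 234 CPM (median 119) in other larvae, and at 24.3 and 35.5 CPM in DGRP486 adults, against 13.8 to 210 CPM (median 100.1) in other adults. Both genes were near the bottom of the panel without leaving its range. Log2 fold changes were -3.14 ± 0.65 and -1.89 ± 0.26 for Ugt35C1, and -2.05 ± 0.43 and -1.34 ± 0.20 for GstO3, in larvae and adults. The larval call was lost without replicate 1 for Ugt35C1 (edgeR adjusted p = 0.109), and without replicate 1 (0.0604) or 2 (0.0592) for GstO3. GstE12 was lower by -0.86 in larvae and -1.39 in adults, and Ugt304A1 was higher by 0.66 and 1.04. Their larval calls were lost without replicate 1 for GstE12 (0.057), and without replicate 1 (0.291) or 2 (0.089) for Ugt304A1. The further gene named by size, CG2065, was at 3.87 and 8.80 CPM in DGRP486 larvae, against 1.31 to 308 CPM (median 40.4) in other larvae, and at 9.96 and 12.4 CPM in DGRP486 adults, against 5.76 to 148 CPM (median 25.3) in other adults. Its log2 fold changes were -2.82 ± 0.43 and -1.29 ± 0.25. The adult call was lost without adult replicate 1 (0.0716). The stage difference of 1.56 ± 0.43 was lost without larval replicate 1 (0.478), adult replicate 1 (0.134) or adult replicate 2 (0.349).

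Digestive enzymes of carbohydrate were higher in DGRP486 where they were called, apart from the mannosidase LManI in larvae (-0.997). Of 10 measured, 4 were higher and 1 lower in larvae, and 3 were higher in adults, where 2.31% and 1.38% of all larval genes and 3.45% of all adult genes were called in those directions, and the median log2 fold change was 0.53 in larvae and 0.62 in adults. Amy-p, an amylase that cuts starch, was at 301 and 261 CPM in DGRP486 larvae, against 3.66 to 456 CPM (median 49.7) in other larvae, and at 593 and 808 CPM in DGRP486 adults, against 11.3 to 1200 CPM (median 242) in other adults. DGRP486 was high but inside the range at both stages, with log2 fold changes of 2.64 ± 0.43 and 1.60 ± 0.35, and the adult call was lost without adult replicate 2 (edgeR adjusted p = 0.25). Its near-identical copy Amy-d was higher in larvae by 1.99 and had 0.61 in adults without a call; reads of the pair can be split between them, so neither value is certain on its own. The maltases Mal-A4 and Mal-A6 were higher in larvae by 1.83 and 1.39, Mal-B2 by 1.73 and the alpha-glucosidase tobi by 1.24 in adults. The larval call of Mal-A4 was lost without replicate 1 (0.0881) or 2 (0.132), that of Amy-d without replicate 1 (0.305), that of Mal-A6 without replicate 2 (0.295) and that of LManI without replicate 1 (0.359) or 2 (0.119). The adult call of tobi was lost without adult replicate 1 (0.136) or 2 (0.176).

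Digestive serine proteases were called in both directions. Of 18 measured, 1 was higher and 1 lower in larvae, where 2.31% of all genes were higher and 1.38% lower. In adults 4 were higher and 1 lower, where 3.45% of all genes were higher and 1.89% lower. The list's median log2 fold changes were -0.21 in larvae and 0.43 in adults. Jon25Biii, a Jonah protease of the midgut, was at 4962 and 4087 CPM in DGRP486 larvae, against 137 to 11125 CPM (median 1178) in other larvae, and at 396 and 280 CPM in DGRP486 adults, against 3.22 to 553 CPM (median 97.1) in other adults. The groups overlapped at both stages. Jon25Biii had a log2 fold change of 1.71 ± 0.41 in larvae and 1.81 ± 0.41 in adults. Its larval call was lost without replicate 1 (edgeR adjusted p = 0.221) or 2 (0.0557), and its adult call without replicate 1 (0.317). Jon99Ciii was higher in adults by 1.92, a call lost without adult replicate 1 (0.653), and thetaTry was lower in adults by -0.81, a call lost without adult replicate 1 (0.0815) or 2 (0.913).

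Odorant-binding proteins, small secreted carriers of hydrophobic molecules, were called in both directions. Of 8 measured, 2 were higher in larvae, where 2.31% of all genes were. In adults 2 were higher and 2 lower, where 3.45% of all genes were higher and 1.89% lower. The list's median log2 fold changes were 0.42 in larvae and -0.05 in adults. Obp56a was at 187 and 225 CPM in DGRP486 larvae, against 12.9 to 197 CPM (median 58.3) in other larvae, and at 64.9 and 155 CPM in DGRP486 adults, against 4.44 to 318 CPM (median 52.9) in other adults. Its log2 fold changes were 1.88 ± 0.21 and 1.19 ± 0.29, and the adult call was lost without adult replicate 2 (edgeR adjusted p = 0.999). Obp99b was at 244 and 332 CPM in DGRP486 adults, against 5.73 to 462 CPM (median 43.5) in other adults, a log2 fold change of 2.61 ± 0.46. In larvae it was at 16455 and 3520 CPM in DGRP486, against 656 to 20965 CPM (median 5014) in other larvae, with no call at 1.08 ± 0.43. Obp49a was lower in adults by -1.19.

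Obp56d was called with opposite signs. It was at 888 and 210 CPM in DGRP486 larvae, against 68.5 to 907 CPM (median 232) in other larvae, and at 78.3 and 184 CPM in DGRP486 adults, against 69.8 to 953 CPM (median 267) in other adults. Only larval replicate 1 was high. Obp56d had a log2 fold change of 1.204 ± 0.33 in larvae and -0.94 ± 0.23 in adults. Without larval replicate 1 the larval value was -0.18 (edgeR adjusted p = 0.906), and without adult replicate 1 the adult call was lost (0.762); the stage difference of -2.13 was lost in either case (0.596 and 0.325). The other such gene was Vha100-4, a subunit of the vacuolar proton pump, at 59.2 and 74.3 CPM in DGRP486 larvae, against 51.0 to 433 CPM (median 139) in other larvae, and at 50.3 and 37.5 CPM in DGRP486 adults, against 14.6 to 61.1 CPM (median 32.4) in other adults. Its log2 fold change was -1.08 ± 0.28 in larvae and 0.44 ± 0.12 in adults. The larval call was lost without larval replicate 1 (0.288) or 2 (0.0587) and the adult call without adult replicate 1 (0.99). With pool as a factor both calls were lost (0.104 in larvae and 0.052 in adults). The stage difference of 1.54 ± 0.28 passed the test without any single DGRP486 library.

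The remaining genes named for size at both stages were higher in DGRP486. CG16713 was at 405 and 347 CPM in DGRP486 larvae, against 4.13 to 187 CPM (median 53.6) in other larvae, and at 82.6 and 110 CPM in DGRP486 adults, against 17.1 to 105 CPM (median 41.6) in other adults. It was clear of the other lines in larvae and overlapped with them in adults, with log2 fold changes of 2.87 ± 0.23 and 1.15 ± 0.24. The adult call was lost without adult replicate 2 (edgeR adjusted p = 0.261). The stage difference of -1.70 ± 0.43 was lost without larval replicate 1 (0.15) or either adult replicate (0.374 and 0.122), and with pool as a factor (0.0883). CG10184 was at 74.3 and 133 CPM in DGRP486 larvae, against 1.82 to 115 CPM (median 44.9) in other larvae, and at 85.9 and 91.4 CPM in DGRP486 adults, against 7.75 to 94.0 CPM (median 34.5) in other adults. Its log2 fold changes were 1.32 and 1.39, and the larval call was lost without larval replicate 2 (0.146). CG6337 had log2 fold changes of 1.09 and 1.29, and its calls were lost without larval replicate 2 (0.926) and without adult replicate 2 (0.0982).

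In CG11854 and CG4115 the larval call rested on a single library. CG11854 was at 427 and 34.5 CPM in DGRP486 larvae, against 5.80 to 361 CPM (median 74.9) in other larvae, and without replicate 1 its larval log2 fold change of 1.57 turned to -1.17. CG4115 was at 7.93 and 103 CPM in DGRP486 larvae, against 5.77 to 41.2 CPM (median 14.6) in other larvae, and without replicate 2 its larval value of 1.84 turned to -0.94. In adults both libraries of each gene lay above the median of the other lines. CG11854 was at 32.9 and 53.2 CPM in DGRP486 adults, against 1.10 to 120 CPM (median 8.33) in other adults, a log2 fold change of 2.12 ± 0.23. CG4115 was at 19.3 and 17.6 CPM in DGRP486 adults, against 3.58 to 19.4 CPM (median 7.86) in other adults, a log2 fold change of 1.24 ± 0.15.

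Of the genes that differed in larvae only, 25 were higher and 24 lower. Bbd had the largest excess, at 561 and 1210 CPM in DGRP486 larvae, against 39.4 to 582 CPM (median 108) in other larvae. In adults it was at 708 and 1351 CPM in DGRP486, against 287 to 4471 CPM (median 758) in other adults. As CPM were scaled within each stage, its larval and adult levels cannot be set side by side. Bbd had a log2 fold change of 2.89 ± 0.30 in larvae and 0.34 ± 0.24 in adults, with a stage difference of -2.53 ± 0.53 that was lost without adult replicate 1 (edgeR adjusted p = 0.217).

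alphaTub85E, an alpha-tubulin, was at 50.0 and 97.3 CPM in DGRP486 larvae, against 3.64 to 83.3 CPM (median 12.1) in other larvae, and at 32.8 and 28.4 CPM in DGRP486 adults, against 6.53 to 56.5 CPM (median 32.3) in other adults. Its log2 fold change was 2.45 ± 0.37 in larvae and -0.01 ± 0.14 in adults, and the stage difference was lost without adult replicate 1 (edgeR adjusted p = 0.0661) or 2 (0.113). Cpr56F, a cuticle protein gene, was at 15.6 and 50.8 CPM in DGRP486 larvae, against 1.92 to 22.7 CPM (median 6.49) in other larvae, and at 8.35 and 9.11 CPM in DGRP486 adults, against 2.49 to 16.7 CPM (median 8.02) in other adults. Adult DGRP486 levels of both genes were close to the median of the other lines. For Cpr56F the log2 fold change was 2.39 ± 0.29 in larvae and 0.19 ± 0.19 in adults. Without larval replicate 2 its larval call (0.0619) and its stage difference (0.131) were lost. Of 6 cuticle protein genes measured, Cpr56F and Cpr51A were higher in larvae, where 2.31% of all genes were. Cpr51A lost that call without larval replicate 1. Cpr67B was lower in adults (-0.70), where 1.89% of all genes were lower. Both adult DGRP486 libraries of Cpr67B, at 58.6 and 59.6 CPM, were below the lowest other adult library at 60.1 CPM. Its stage difference was lost without larval replicate 1 (edgeR adjusted p = 0.198), adult replicate 1 (0.325) or adult replicate 2 (0.241).

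Genes of the Toll pathway, which senses fungi and many bacteria, were higher in DGRP486 larvae where called. SPE, the protease that activates the Toll ligand Spätzle, was at 74.3 and 121 CPM in DGRP486 larvae, against 6.33 to 82.5 CPM (median 21.4) in other larvae, and at 140 and 184 CPM in DGRP486 adults, against 43.7 to 341 CPM (median 112) in other adults. SPE had a log2 fold change of 2.11 ± 0.21 in larvae and 0.49 ± 0.16 in adults, and the stage difference of -1.60 ± 0.32 was lost without adult replicate 1 (edgeR adjusted p = 0.115). SPE overlaps CG18754 on the same strand, so its reads may be shared. nec, a serpin that restrains the pathway, was higher in larvae by 1.28, with 86.4 and 93.7 CPM in DGRP486, against 18.4 to 81.8 CPM in other larvae. Tl, the Toll receptor, was higher by 0.49, a call lost without larval replicate 1 (0.552) or 2 (0.0593) and with pool as a factor (0.235). For nec and Tl the stage difference was not called. Of the 22 Toll and Imd genes measured these 3 were called in larvae and 0 in adults, where 3.68% and 5.34% of all genes were called; the unadjusted edgeR p was under 0.05 for 1083 of all 7414 genes in adults. The list's median log2 fold change was 0.06 at both stages. Of 12 immune recognition genes, Tep4 (0.95) and PGRP-SA (0.68) were higher in larvae and PGRP-LF (0.73) in adults. Over all genes, 2.31% were higher in larvae and 3.45% in adults. The call was lost for PGRP-SA without larval replicate 1 (edgeR adjusted p = 0.301) and for PGRP-LF without adult replicate 2 (0.999), and Tep4 kept its larval call without either larval library but lost its stage difference without larval replicate 2 (0.0561), adult replicate 1 (0.243) or adult replicate 2 (0.113).

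Also higher in larvae only were Ugt36D1 and CG6357. Ugt36D1, a UDP-glycosyltransferase, was at 64.1 and 33.5 CPM in DGRP486 larvae, against 2.38 to 73.2 CPM (median 11.3) in other larvae, and CG6357 was at 136 and 77.5 CPM in DGRP486 larvae, against 9.54 to 92.1 CPM (median 28.3) in other larvae. In adults both lay well inside the range, with log2 fold changes of -0.08 and -0.22. Their larval values of 1.98 ± 0.36 and 1.86 ± 0.27 lost their calls without larval replicate 1 (edgeR adjusted p = 0.223 and 0.0541). The stage difference was lost without larval replicate 1 or adult replicate 1 for CG6357 (0.0777 and 0.0661), and also without adult replicate 2 for Ugt36D1 (0.237, 0.0835 and 0.143).

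Among genes lower in larvae only, vanin-like, a relative of the pantetheinases that recycle vitamin B5, was the most so. It was at 46.9 and 120 CPM in DGRP486 larvae, against 66.1 to 3062 CPM (median 1029) in other larvae, and at 28.2 and 28.4 CPM in DGRP486 adults, against 3.46 to 228 CPM (median 43.3) in other adults. By line mean, DGRP486 was the lowest of the 41 lines in larvae and the 16th lowest in adults. For vanin-like the log2 fold change was -3.51 ± 0.76 in larvae and -0.57 ± 0.24 in adults, and without larval replicate 1 the larval call (edgeR adjusted p = 0.152) and the stage difference (0.202) were lost. Jon65Aiii, a Jonah protease of the midgut, was at 3291 and 5592 CPM in DGRP486 larvae, against 3648 to 27457 CPM (median 11847) in other larvae, and at 2640 and 3070 CPM in DGRP486 adults, against 739 to 5916 CPM (median 1931) in other adults. Its log2 fold change was -1.42 ± 0.39 in larvae and 0.61 ± 0.23 in adults. The larval call was lost without replicate 1 (0.407) or 2 (0.0554), and the stage difference without larval replicate 1 (0.156).

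Ugt35B1, a UDP-glycosyltransferase, was at 5.01 and 11.2 CPM in DGRP486 larvae, against 1.88 to 53.1 CPM (median 24.3) in other larvae. In adults it was at 257 and 224 CPM in DGRP486, against 120 to 345 CPM (median 199) in other adults. CG5246 was at 90.8 and 84.2 CPM in DGRP486 larvae, against 67.0 to 1227 CPM (median 347) in other larvae, and at 29.0 and 39.7 CPM in DGRP486 adults, against 4.13 to 123 CPM (median 25.8) in other adults. Both were near the low end in larvae and above the median in adults. The log2 fold change in larvae was -1.49 ± 0.35 for Ugt35B1, -1.86 ± 0.44 for CG5246, -1.57 ± 0.45 for CG7720 and -1.51 ± 0.38 for CG9682. Without larval replicate 1 the larval call was lost for Ugt35B1 (edgeR adjusted p = 0.365), CG5246 (0.123), CG7720 (0.451) and CG9682 (0.468), and for CG5246 also without replicate 2 (0.0817). Their stage differences were lost without larval replicate 1 (0.183 for Ugt35B1, 0.0934 for CG5246, 0.327 for CG7720 and 0.55 for CG9682), and also without adult replicate 2 for CG5246 (0.124), CG7720 (0.475) and CG9682 (0.0831) and without adult replicate 1 for CG9682 (0.457). In CG9682 the libraries differed, at 338 and 1367 CPM in DGRP486 larvae, against 533 to 8126 CPM (median 2489) in other larvae.

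Of the genes that differed in adults only, 25 were higher and 11 lower. Jon74E, a Jonah protease, was at 1821 and 1979 CPM in DGRP486 adults, against 2.57 to 1288 CPM (median 631) in other adults. In larvae it was at 551 and 581 CPM in DGRP486, against 5.15 to 3783 CPM (median 1285) in other larvae. DGRP486 was thus the highest line in adults and below the median in larvae. Lines with very low levels pull down the log-scale mean used for the fold changes. The lowest, DGRP879, had means of 5.34 CPM in larvae and 3.56 CPM in adults. The log2 fold change was 2.62 ± 0.15 in adults and -0.47 ± 0.58 in larvae, and the stage difference of 3.10 ± 0.65 (edgeR adjusted p = 0.00233) was lost without larval replicate 1 (0.0674).

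Mal-B2, a maltase, was at 408 and 674 CPM in DGRP486 adults, against 65.4 to 739 CPM (median 147) in other adults, and at 50.3 and 43.5 CPM in DGRP486 larvae, against 25.7 to 85.1 CPM (median 46.8) in other larvae. Its log2 fold change was 1.73 ± 0.19 in adults and -0.04 ± 0.19 in larvae, and no call of it was lost without a single DGRP486 library. CG4734 was at 322 and 583 CPM in DGRP486 adults, against 11.2 to 920 CPM (median 88.5) in other adults, and Phae2, a serine protease, was at 77.9 and 89.4 CPM in DGRP486 adults, against 8.75 to 117 CPM (median 29.6) in other adults. Both were high within the range. The adult log2 fold change was 2.37 ± 0.21 for CG4734, 1.48 ± 0.20 for Phae2, 1.498 ± 0.23 for CG31446 and 1.47 ± 0.19 for the P450 gene Cyp4d1. In larvae Phae2 was at 32.0 and 54.5 CPM in DGRP486, against 24.2 to 389 CPM (median 95.2) in other larvae, and its stage difference of 2.79 ± 0.47 held without any single DGRP486 library. The stage difference was lost for CG4734 without larval replicate 1 (edgeR adjusted p = 0.271) or adult replicate 2 (0.275) and for Cyp4d1 without adult replicate 2 (0.0637). For CG31446 it was lost without any of the 4 libraries (0.0628 to 0.322).

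Lower in adults only were 2 large cell-surface proteins of development. Ser, which encodes the Notch ligand Serrate, was at 3.53 and 4.04 CPM in DGRP486 adults, against 3.29 to 23.8 CPM (median 11.0) in other adults, and at 25.6 and 11.7 CPM in DGRP486 larvae, against 5.38 to 28.2 CPM (median 14.2) in other larvae. ft, which encodes the cadherin Fat of the Hippo pathway, was at 3.75 and 3.66 CPM in DGRP486 adults, against 3.43 to 33.1 CPM (median 9.62) in other adults, and at 49.3 and 21.2 CPM in DGRP486 larvae, against 14.1 to 59.6 CPM (median 28.7) in other larvae. Adult values were at the low end of the panel, while in larvae replicate 1 was near the top and replicate 2 below the median for both genes. The adult log2 fold changes were -1.47 ± 0.24 and -1.41 ± 0.33. The stage difference was lost without larval replicate 1 for Ser (edgeR adjusted p = 0.244) and ft (0.458). The adult call of ft was lost without adult replicate 1 (0.102) or 2 (0.194).

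The others were Ctf4, a protein of the replication fork, at -1.21 ± 0.27 in adults, CG4267 at -1.07 ± 0.15, CG6005 at -0.95 ± 0.13 and the P450 gene Cyp28d2 at -0.88 ± 0.25. Each of these 4 lost the stage difference without at least 2 of the 4 DGRP486 libraries. Cyp28d2 also lost its adult call without adult replicate 1 (edgeR adjusted p = 0.451) or 2 (0.218), and Ctf4 without adult replicate 2 (0.223).

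**Figure D4:**
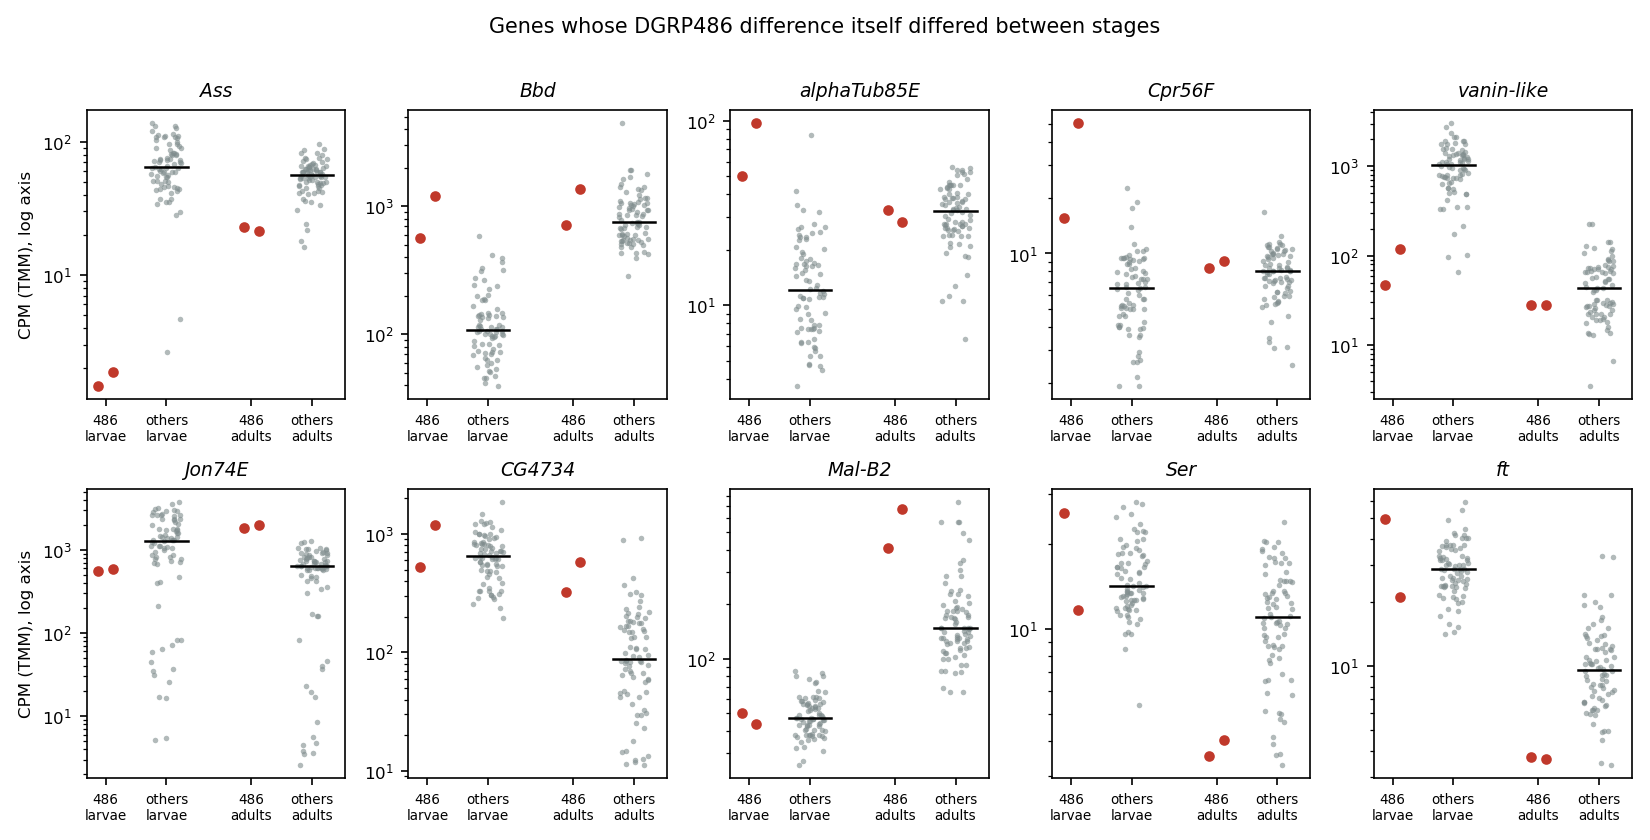
CPM on a log axis for 10 genes with a called difference between stages, with DGRP486 libraries in red (replicate 1 left of replicate 2) and the other lines in grey with a bar at the median. Ass, at 1.46 and 1.86 CPM in larvae, is below every grey point there but within them in adults; Jon74E, at 1821 and 1979 CPM in adults, is above every grey point there but within them in larvae.

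Of 23 muscle sarcomere genes measured, 4 were higher in adults (Mlp84B, Prm, Act57B and Zasp66) and 0 were lower, where 3.45% of all genes were higher and 1.89% lower, and 22 had a positive log2 fold change with a median of 0.37. In larvae 0 were called, where 3.68% of all genes were, 6 had a positive value and the median was -0.24. The unadjusted edgeR p was under 0.05 for 1268 of all 7414 genes in larvae. No stage difference was called for any of the 23, so for them a difference between stages cannot be stated. Mlp84B, a LIM protein of the Z-disc, was at 1053 and 912 CPM in DGRP486 adults, against 191 to 913 CPM (median 503) in other adults. Prm, the paramyosin of the thick filament, was at 1070 and 1014 CPM in DGRP486 adults, against 315 to 977 CPM (median 622) in other adults. Both were at or above the top of the panel, with log2 fold changes of 1.00 ± 0.13 and 0.78 ± 0.12. The Act57B value of 0.59 lost its call without adult replicate 1 (edgeR adjusted p = 0.215), and the Zasp66 value of 0.43 without adult replicate 1 (0.348) or 2 (0.211). The summed level of the list was 25512 and 22063 CPM in DGRP486 adults, against 12871 to 25986 CPM (median 17770) in other adults. In whole animals, more muscle and more RNA per muscle cell cannot be told apart, and the same holds for every tissue named here. In larvae the sum was 18538 and 33823 CPM in DGRP486, against 13971 to 59864 CPM (median 30233) in other larvae, and the list's median log2 difference between the larval replicates was -0.60.

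Of 15 genes of fatty acid and triglyceride synthesis and storage, 2 were called in larvae and 1 in adults, where 3.68% and 5.34% of all genes were called: the lipase gene bmm (-1.06) and the lipid droplet gene Lsd-2 (-0.66) were lower in larvae, and the regulator SREBP (0.42) was higher in adults. bmm was at 58.2 and 40.9 CPM in DGRP486 larvae, against 44.0 to 253 CPM (median 100.4) in other larvae. Each of these 3 calls was lost without either DGRP486 library of its stage (edgeR adjusted p from 0.127 to 0.394). The iron carrier gene Tsf1, among 6 measured genes of fat body secretion and storage, was higher in larvae by 1.28, a call lost without larval replicate 1 (0.174) or 2 (0.0813).

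Several housekeeping groups held no calls. No edgeR call at either stage fell among 85 cytoplasmic ribosomal protein genes, 64 oxidative phosphorylation genes or 32 proteasome genes. None fell among 20 synaptic vesicle genes, 20 autophagy genes, 15 citric acid cycle genes or 12 antioxidant genes. Over all genes, 3.68% were called in larvae and 5.34% in adults, so the shorter of these lists would hold few calls. Their median log2 fold changes in larvae and adults were 0.16 and 0.05 for ribosomal proteins, 0.08 and -0.03 for oxidative phosphorylation, and 0.15 and -0.05 for the proteasome. Of 71 mitochondrial ribosomal protein genes, 1 was higher in larvae (mRpS10, 0.77), where 2.31% of all genes were. In adults 1 was higher (mRpS35, 0.48) and 1 lower (mRpL23, -0.59), where 3.45% of all genes were higher and 1.89% lower. The mRpS10 call was lost without larval replicate 2 (edgeR adjusted p = 0.202), and the adult calls of mRpS35 and mRpL23 were lost without either adult library (0.198 to 0.614).

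**Figure D5:**
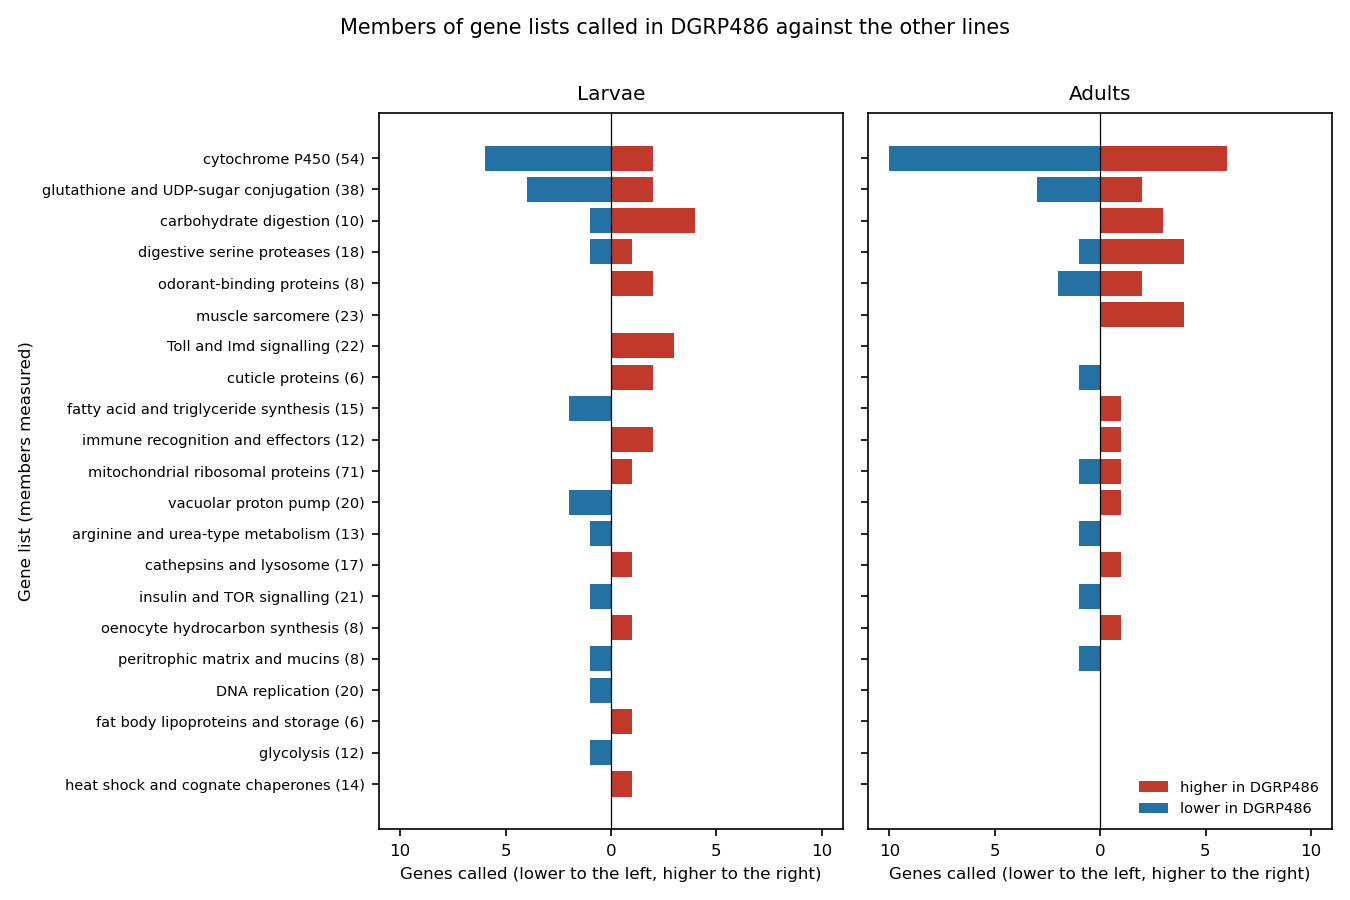
Number of members of each gene list called higher (red, to the right of 0) or lower (blue, to the left) in DGRP486 than in the other lines, in larvae and adults, with the number measured in brackets; lists without a call at either stage are not drawn. Cytochrome P450 genes have the most calls, with 6 lower and 2 higher in larvae and 10 lower and 6 higher in adults.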

How the data were processed

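Per the labels' protocols, polyadenylated RNA of pooled whole animals was sequenced from TruSeq stranded libraries. The submitters' processing notes name FastQC, Trimmomatic, STAR and the builds BDGP6 and dm6; the counting tool and its strand setting are not given in the sources used here. The authors deposited whole-number counts of reads per gene, not normalized, for 7414 genes and 164 libraries. Gene symbols and positions came from Ensembl BDGP6 for 7349 of 7414 identifiers. The counts of 162 libraries were fitted with edgeR 4.0.16 in R 4.3.3 (quasi-likelihood F test, TMM scaling, 1 coefficient per line), each stage on its own. DGRP486 was set against the equally weighted mean of the coefficients of the other 40 lines, which is a mean of logs. The stage difference was tested in a joint fit of both stages, with 1 error estimate per gene shared by larvae and adults. Where larval replicates spread more than adult ones, this can understate the larval error. A Benjamini-Hochberg adjusted p under 0.05 over all genes made a call. Standard errors (SE) were back-calculated as the absolute log2 fold change over the square root of the test's F statistic. Figures and summaries used Python 3.11.15. The fits were tested on simulated data. Alternatives included DESeq2 1.42.0, limma 3.58.1 with line means, sequencing pool or roX1 as a covariate, and leaving out each DGRP486 library. Leaving 1 DGRP486 library assumes that it varies like the replicates of other lines.

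Genes were named by size of change: of those with at least 5 CPM, the 10 with the largest changes per direction at both stages, the 6 per direction at 1 stage, up to 4 of opposite sign, up to 3 called members per gene list, roX1 and Ass. Other members are given after their values were seen. The line, the 36 lists, the rules and the alternatives were chosen with earlier results of these data known. Replicate numbers were not used to pair libraries of different lines. The replicate 1 minus replicate 2 difference of DGRP486 correlated with its mean over other lines at r = -0.132 in larvae and 0.00502 in adults. Between lines, r was over 0.1 for 264 of 741 larval and 397 of 820 adult pairs of lines, with medians of 0.0119 and 0.0908. Whether the numbers carry something shared between lines was not tested further.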

Additional observations from a re-analysis of the deposited data

Results flagged for a closer look

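For 35 named genes the adult minus larval difference of the DGRP486 log2 fold change passed edgeR's test of that difference, and their values follow.

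A positive value means that DGRP486 stood higher, relative to the other lines, in adults than in larvae. Among genes called at both stages the difference was 4.02 for Ass, 1.78 for Cyp6g1, 1.56 for CG2065, 0.73 for ath and -1.70 for CG16713, and, where the signs were opposite, -2.13 for Obp56d and 1.54 for Vha100-4. Among genes higher in larvae only it was -2.53 for Bbd, -2.44 for alphaTub85E, -2.17 for Cpr56F, -2.07 for CG6357, -2.05 for Ugt36D1, -1.60 for SPE, -1.40 for Hsp67Ba and -1.16 for Tep4.

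Among genes lower in larvae only it was 2.96 for vanin-like, 2.27 for CG5246, 2.05 for Jon65Aiii, 1.91 for CG7720, 1.75 for Ugt35B1, 1.47 for CG9682 and 0.88 for Hex-A, which encodes a hexokinase. Among genes higher in adults only it was 3.10 for Jon74E, 2.79 for Phae2, 1.96 for CG4734, 1.78 for Mal-B2, 1.68 for Cyp4d1 and 1.5 for CG31446. Among genes lower in adults only it was -2.01 for Cyp28d2, -1.79 for Ser, -1.71 for ft, -1.58 for Cpr67B, -1.34 for Ctf4, -1.14 for CG4267 and -0.76 for CG6005.

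For Hsp67Ba, a small heat shock protein gene at 62.6 and 19.3 CPM in DGRP486 larvae, the larval log2 fold change of 1.08 was -0.0207 without larval replicate 1. Its stage difference was lost without larval replicate 1 (edgeR adjusted p = 0.835), adult replicate 1 (0.325) or adult replicate 2 (0.23). Hex-A lost its larval call without larval replicate 1 (0.589), and its stage difference without larval replicate 1 (0.483), adult replicate 1 (0.22) or adult replicate 2 (0.152).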

How the results depend on the processing

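The counts were 273 genes in larvae, 396 in adults, 112 stage differences, 69 at both stages with the same sign, 49 in larvae only and 36 in adults only, and 35, 39 and 10 genes outside the range of the other lines in larvae, adults and both. Leaving out single DGRP486 libraries gave 127 to 284 in larvae, 129 to 140 in adults, 29 to 387 stage differences, 35 to 46 at both stages, 13 to 131 in larvae only and 11 to 75 in adults only. Without larval replicate 1 the larval calls were 109 higher and 18 lower, against 171 and 102 with it. Of the calls, 40 in larvae and 73 in adults were made in both leave-out fits of their stage, and 13 genes were called at both stages in all 4: betaTub97EF, Cyp6g1, Thor, CG9396, Atf3, ath, Ass, CG32195, CG18343, CG7194, CG11149, Tim23 and CG3842. With pool as a factor the counts were 112 in larvae, 70 stage differences, 39 at both stages, 22 in larvae only and 22 in adults only. Among the 35 named stage differences, that fit lost those of CG16713, CG7720, CG9682, CG31446, ft, Ctf4, CG6005, Cyp28d2, Hsp67Ba and Hex-A. With each line as the unit the counts were 17, 15, 1, 8, 1 and 0 in the order above. The joint fit gave 580 in larvae and 206 in adults, and a test against 1.5-fold gave 40, 48 and 12 at both stages. DESeq2's test gave 79 in larvae only, and its larval calls split into 190 higher and 174 lower. Other scalings, the low-count filter, roX1 as a covariate, all 164 columns, and leaving out 3 of the 19 larval libraries that matched another line better than their own moved no count by over 1.5 times; the outside-range counts under total-count scaling and without those 3 libraries were chosen after seeing the data. The replicate number as a block gave 281, 455, 120, 75, 48 and 43, and what that number stands for was not tested. Without replicate 1 and without replicate 2 the larval log2 fold change was -1.17 and 2.456 for CG11854, 2.749 and -0.94 for CG4115, -0.18 and 1.896 for Obp56d, and -0.0207 and 1.673 for Hsp67Ba; the cause was not tested. The 11-read minimum in every library limits all counts to genes seen in every line.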
